A study of Mus musculus with 16 samples.

Results

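Heat shock chaperones and the cold-inducible RNA-binding protein gene Cirbp were followed through 8 samples of mouse follicular B cells. The members were chosen by name from the gene name column of the scanner files, with earlier results of these data known, and every probe of a listed gene was taken. Of 10 listed genes 9 had a probe, which gave 17 probes of the 41174 on the array. Hspa1b had none under its own name. Of the 17 probes 16 were kept by a filter that asks for a sample signal that the scanner software marks as well above background on both arrays of at least 2 samples. The dropped one was a dim Hspa1a probe that passed the mark on 4 of 16 arrays. The filter kept 29640 probes of 20469 named genes in all.

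All samples were C.B17 follicular B cells, and each was hybridised in both dye orientations, on 2 arrays, against a common reference RNA from 6 cell lines (P388d, DN3, EL4, J558, RS2 and R1). Edited cells (n = 1) and Non-edited cells (n = 1) shared 1 genotype, VH3609t +/- with Vk21-5Tg +/- on a Thy-1 knockout. Auto.Pos cells (n = 2) came from AGcAμκTg mice, whose receptor against intestinal goblet cells is VH3609μ/Vk19-17κ in the sample name and Vkappa17-17kappa in the genotype field. Auto.Neg cells (n = 2) came from ATAμκTg mice, with the receptor VH3609μ/Vk21-5κ against Thy-1, on a Thy-1 knockout, so that the antigen is missing. WT mice (n = 2) were labelled wild type, without a word on Thy-1. Receptor editing is the replacement of a receptor chain after a further gene rearrangement. The labels give no age, do not say how edited cells were told from non-edited ones, and are silent on whether replicate samples were drawn from different animals or pools, so p-values measure the spread between these samples only. The value of a gene is the log2 ratio of sample over reference, averaged over both arrays of a sample. Precision between groups is limited by the 1 or 2 samples a group.

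Molecular chaperones bind unfolded proteins. HSP70 proteins such as Hspa8 and Hspa1a work in cycles with J proteins, which bring substrate and stimulate their ATPase, and with HSP110 proteins such as Hsph1, which exchange the nucleotide. HSP90 takes over many signalling proteins from HSP70, and the mitochondrial chaperonin Hspd1 folds imported proteins in a chamber closed by Hspe1. Heat shock factor 1 drives many of these genes when proteins unfold, through heat shock elements made of inverted repeats of GAA. Cirbp is an RNA-binding protein whose mRNA is known to rise on mild cooling and to decrease on heating, the reverse of the inducible chaperones.

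Promoter windows are shown for 4 members because they differ in these elements. They are RefSeq sequences of GRCm38.p6, running from 250 bases before an annotated start to 30 bases from it on. Capitals mark the heat shock elements of 2 units (GAANNTTC or TTCNNGAA) in the chaperones and TCCCCGCC, a mild cold response element, in Cirbp. The Hsph1 window lies at chr5:149636286-149636565 on the minus strand, the Hspe1 window at chr1:55087898-55088177 on the plus strand, the Hspa1a window at chr17:34972127-34972406 on the minus strand and the Cirbp window at chr10:80167589-80167868 on the plus strand.
Hsph1: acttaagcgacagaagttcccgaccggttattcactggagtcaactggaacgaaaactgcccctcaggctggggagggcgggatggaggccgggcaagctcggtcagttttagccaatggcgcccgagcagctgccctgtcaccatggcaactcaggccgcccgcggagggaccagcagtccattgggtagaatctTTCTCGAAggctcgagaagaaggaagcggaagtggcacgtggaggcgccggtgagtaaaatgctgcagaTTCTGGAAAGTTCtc
Hspe1: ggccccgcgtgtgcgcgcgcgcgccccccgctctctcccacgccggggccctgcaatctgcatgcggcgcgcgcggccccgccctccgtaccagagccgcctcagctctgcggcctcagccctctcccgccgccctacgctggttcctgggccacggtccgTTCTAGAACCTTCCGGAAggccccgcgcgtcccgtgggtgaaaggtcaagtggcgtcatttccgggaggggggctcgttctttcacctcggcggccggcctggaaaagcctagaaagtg
Hspa1a: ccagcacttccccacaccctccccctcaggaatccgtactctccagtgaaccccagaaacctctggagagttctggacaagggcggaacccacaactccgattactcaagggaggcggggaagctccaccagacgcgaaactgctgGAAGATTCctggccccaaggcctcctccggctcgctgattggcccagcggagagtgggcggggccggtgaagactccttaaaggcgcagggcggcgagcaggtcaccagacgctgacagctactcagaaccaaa
Cirbp: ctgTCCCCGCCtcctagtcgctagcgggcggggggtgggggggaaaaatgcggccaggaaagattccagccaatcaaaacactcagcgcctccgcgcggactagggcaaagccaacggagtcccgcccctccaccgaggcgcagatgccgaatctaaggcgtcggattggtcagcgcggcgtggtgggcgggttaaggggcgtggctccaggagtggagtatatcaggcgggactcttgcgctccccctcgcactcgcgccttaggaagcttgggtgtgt
A RefSeq window was at hand for 8 of the 10 members, 14 windows in all with alternative starts, and not for Hspa8 or Hsp90aa1. Both strands were searched. A gene counted if any of its windows held a match, while the shares below are of single windows, so counts and shares are in unlike units. Heat shock elements of 3 units (GAANNTTCNNGAA or TTCNNGAANNTTC, each of which holds the shorter motif) were found for 3 of the 8 genes, Hsph1, Hspe1 and Hspd1, and in 0.563% of all 32851 windows of this length. Hspd1 and Hspe1 are transcribed away from each other and share the element. Elements of 2 units were found for 6 of the 8 genes, against 14.2% of all windows. TCCCCGCC was found for 4 of the 8 genes, Cirbp, Hspa1a, Hspa1b and Dnaja1, against 5.14% of all windows. A match of letters is a description and not a site of binding. The Hspa1a and Hspa1b windows had the same base at 276 of 280 positions, and these genes code for nearly the same protein, so a probe named Hspa1a may also hybridise to Hspa1b RNA, which was not tested.

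Hsph1, the HSP110 nucleotide exchange factor, had the widest range of the 8 chaperone genes on the brightest probe of each. Its log2 ratio was -1.84 in Edited cells and 0.36 in Non-edited cells. It was -1.20 and -1.62 in the Auto.Pos samples, -1.43 and -1.18 in the Auto.Neg samples and -1.37 and -1.38 in the WT samples. Non-edited cells thus lay 1.73 above the median of the 6 samples of the replicated groups, and Edited cells below it (a difference of -0.47). Both arrays of each sample gave this order, with gaps between the arrays of a pair of at most 0.35. The file calls the gene Hsp110, and its probe lies on mm7 chromosome 5 at 148550005 to 148550064.

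**Figure D1:**
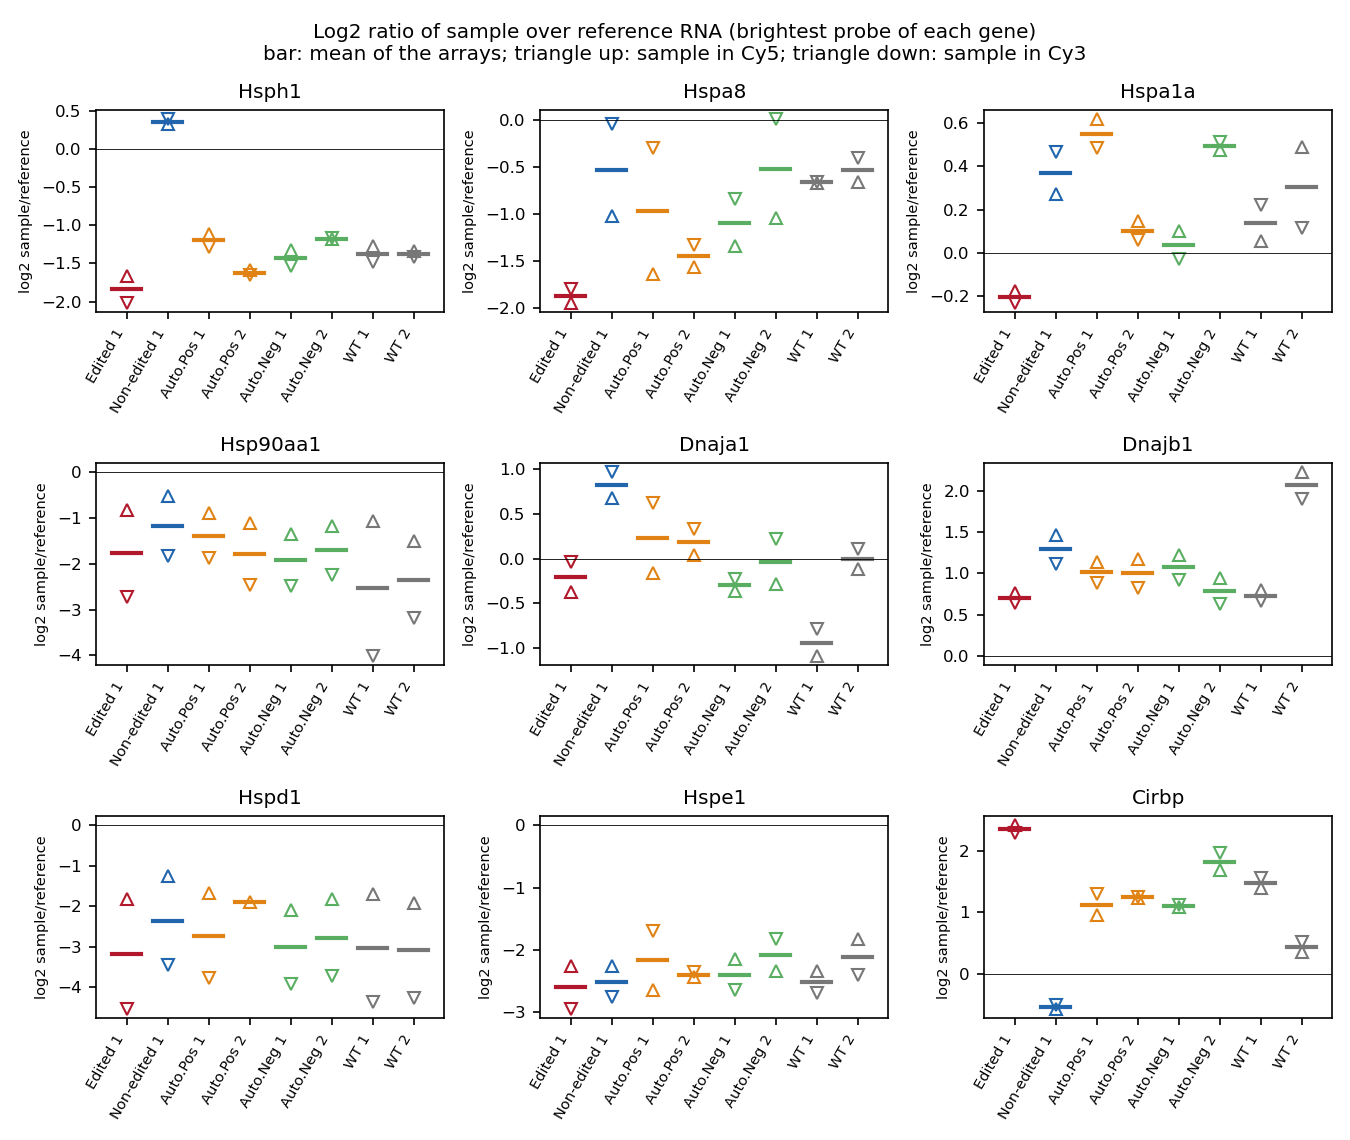
Log2 ratio of sample over reference for the brightest probe of each member (vertical axes, which differ between panels) in the 8 samples (horizontal axis). Bars are sample means and triangles single arrays, pointing up where the sample was in Cy5 and down where it was in Cy3. Hsph1 is at 0.36 in Non-edited cells and between -1.84 and -1.18 elsewhere, and Cirbp is at 2.35 in Edited and -0.54 in Non-edited cells.

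Hspa8, the constitutive HSP70 of the cytosol, was represented by 2 probes that did not move together across the 8 samples (r = -0.0926). On the brighter probe the log2 ratio was -1.87 in Edited and -0.53 in Non-edited cells, -0.97 and -1.45 in Auto.Pos, -1.10 and -0.52 in Auto.Neg, and -0.66 and -0.53 in WT. On this probe Edited cells were the lowest of all samples and Non-edited cells lay among the others. On the dimmer probe it was 0.60 in Edited and 2.27 in Non-edited cells, -1.64 and 0.20 in Auto.Pos, 1.28 and -1.25 in Auto.Neg, and -0.14 and 0.06 in WT. Here Non-edited cells were the highest of all samples and Edited cells ranked 3 from the top. Both probes were lower in Edited than in Non-edited cells, while their order over the other samples differed. The files place both probes on mm7 chromosome 5, and RefSeq has the gene on chromosome 9, so their assignment to Hspa8 is uncertain.

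Hspa1a, the stress-inducible HSP70, gave dim signals, with a mean log2 intensity of 7.03 on its brightest probe against 15.5 on that of Hspa8. Its log2 ratio on that probe was -0.20 in Edited and 0.37 in Non-edited cells, 0.55 and 0.10 in Auto.Pos, 0.04 and 0.50 in Auto.Neg, and 0.14 and 0.30 in WT. Edited cells were the lowest, and Non-edited cells lay within the range of the other 6 samples. A neighbouring probe followed it closely (r = 0.969 over the 8 samples), and the third kept probe did not (r = 0.000425). The probes lie between 33066911 and 33067322 on mm7 chromosome 17.

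Hsp90aa1, the stress-inducible cytosolic HSP90, was lower than the reference in all 8 samples. Its log2 ratio was -1.77 in Edited and -1.17 in Non-edited cells, -1.38 and -1.79 in Auto.Pos, -1.92 and -1.71 in Auto.Neg, and -2.53 and -2.35 in WT. On these means Non-edited cells were the highest and the WT samples the lowest. The dye orientations disagreed in level for this probe, by 0.996 to 2.95 log2 units within a sample, always with the higher ratio where the sample was in Cy5. They also disagreed in order. On the Cy5 arrays WT sample 1, at -1.06, lay above Auto.Pos sample 2 (-1.11) and both Auto.Neg samples (-1.35 and -1.18).

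The J proteins were read by 3 Dnaja1 and 2 Dnajb1 probes. Dnaja1, a partner of cytosolic HSP70, had log2 ratios of -0.21 in Edited and 0.82 in Non-edited cells, 0.23 and 0.18 in Auto.Pos, -0.30 and -0.04 in Auto.Neg, and -0.94 and -0.01 in WT. All 3 of its probes had Non-edited cells as the highest and WT sample 1 as the lowest sample, and they correlated at 0.875 to 0.976 with each other over the 8 samples. Dnajb1, the J protein best known as heat-inducible, had log2 ratios of 0.70 in Edited and 1.29 in Non-edited cells, 1.01 and 1.00 in Auto.Pos, 1.07 and 0.79 in Auto.Neg, and 0.73 and 2.07 in WT. Its highest sample was WT sample 2 and its lowest Edited cells, next to WT sample 1. On the dimmer Dnajb1 probe Non-edited cells were highest, at 1.35, against 1.14 in WT sample 2.

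The mitochondrial chaperonin was far below the reference in every sample. Hspd1 had log2 ratios of -3.17 in Edited and -2.36 in Non-edited cells, -2.73 and -1.90 in Auto.Pos, -3.01 and -2.78 in Auto.Neg, and -3.03 and -3.09 in WT. The value of Auto.Pos sample 2, the highest, comes from the Cy5 array alone, because the other array's spot was left out as an outlier. In the other 7 samples the Cy5 array of this probe read 1.84 to 2.72 above the Cy3 array, so that this sample's mean is not comparable with the others. On the second Hspd1 probe, with gaps of 0.218 to 0.538 between arrays, the log2 ratio was -2.09 in Edited and -1.61 in Non-edited cells, -3.22 and -2.50 in Auto.Pos, -2.25 and -3.26 in Auto.Neg, and -3.13 and -3.03 in WT. Here Edited and Non-edited cells were the 2 highest samples, and the probes correlated at only 0.251 over the 8 samples. Hspe1, the lid of the chaperonin, had log2 ratios of -2.60 in Edited and -2.51 in Non-edited cells, -2.17 and -2.40 in Auto.Pos, -2.40 and -2.08 in Auto.Neg, and -2.51 and -2.11 in WT. On the means of both orientations it varied least of the 8 chaperone genes, with a range of 0.52. The arrays of a sample differed by 0.076 to 0.937 for Hspe1. It ran from -2.64 to -1.82 on the Cy5 arrays and from -2.95 to -1.70 on the Cy3 arrays. In each orientation alone the brightest Hspa1a probe varied less, from -0.175 to 0.62 on the Cy5 arrays and from -0.23 to 0.515 on the Cy3 arrays.

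Cirbp ran the other way. Its log2 ratio was 2.35 in Edited and -0.54 in Non-edited cells, 1.12 and 1.24 in Auto.Pos, 1.10 and 1.82 in Auto.Neg, and 1.48 and 0.43 in WT. Edited cells were the highest and Non-edited cells the lowest of the 8 samples, outside the range of the other 6 on both sides. Relative to the median of those 6 samples, Edited cells were 1.17 higher and Non-edited cells lower (a difference of -1.72). The probe was bright, with gaps of 0.02 to 0.35 between the arrays of a sample, and lies on mm7 chromosome 10 at 79953824 to 79953883.

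Edited cells had less chaperone signal and more Cirbp signal than Non-edited cells. With 1 sample each there is no test and no replicate check, and as the members were chosen with these values known, the contrast is a description. On the brightest probes Hsph1 was 4.59-fold lower (log2 difference -2.20), Hspa8 2.54-fold lower (-1.34) and Dnaja1 2.04-fold lower (-1.03). The differences were -0.81 for Hspd1, -0.61 for Hsp90aa1, -0.59 for Dnajb1, -0.57 for Hspa1a and -0.09 for Hspe1. That of Hspa1a was -1.35 with the Agilent processed log ratio and -0.94 in the series table. All 8 chaperone genes were thus lower in Edited cells, with a median of -0.71, where the median of all kept probes was -0.03. Cirbp was 7.41-fold higher (2.89). The largest and the smallest chaperone differences, those of Hsph1 and Hspe1, belong to genes that both have a heat shock element of 3 units in a window shown above. The match of Hsph1 lies past the annotated start and that of Hspe1 before it. A link between these elements and the values was not tested.

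Of the 16 kept member probes, 4 were at least 2-fold lower in both dye orientations, where 41 of all kept probes were (0.138%). They were the Hsph1 probe, the dimmer Hspa8 probe and 2 of the Dnaja1 probes. The Cirbp probe was at least 2-fold higher in both orientations, as were 306 of all kept probes (1.03%). Since the members were chosen on this contrast, nothing is read from these shares. With the arrays centred on their medians and no loess curve, 2 member probes passed the rule in place of 5, and Hspe1 turned to 0.15. The Hsp90aa1 difference was -0.31 with the samples in Cy5 and -0.91 with them in Cy3. The brighter Hspa8 probe missed the rule by its Cy5 arrays, at -0.93, against -1.76 on the Cy3 arrays.

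**Figure D2:**
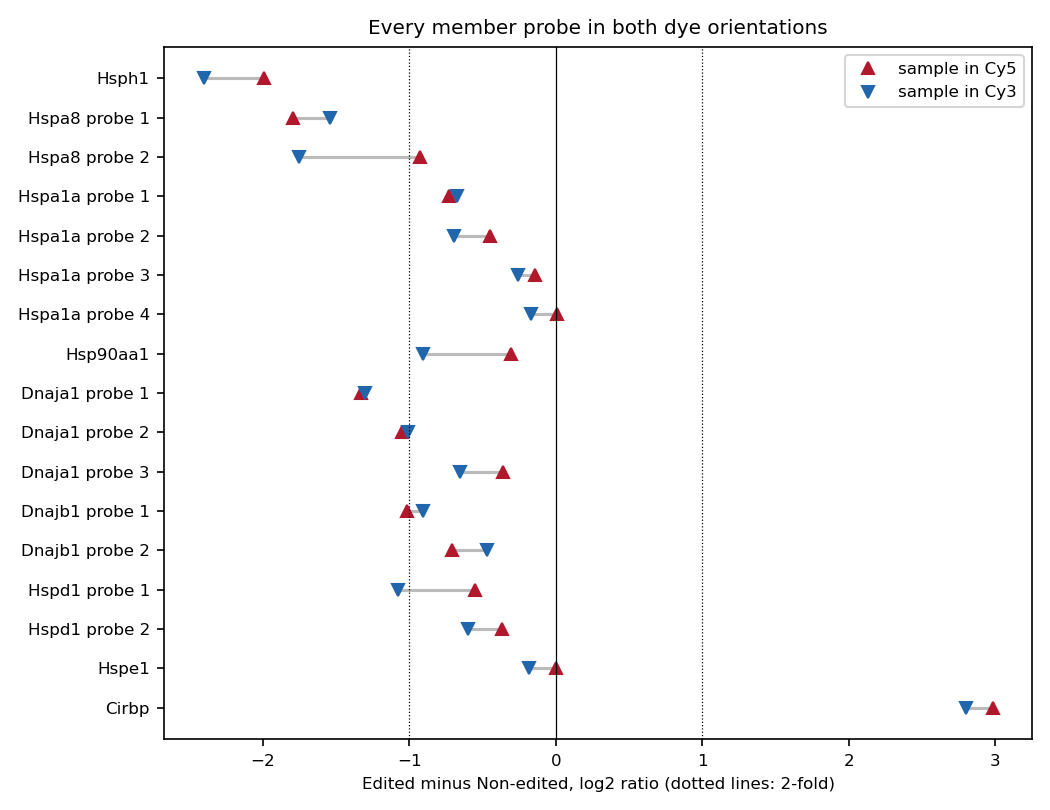
Edited minus Non-edited log2 ratio (horizontal axis) of all 17 member probes (vertical axis), with 1 sample in each group. Triangles are the dye orientations, and probes of a gene are numbered from the lowest difference up. Cirbp is at 2.98 and 2.80, Hsph1 at -1.99 and -2.40, and chaperone probes other than those of Hsph1, Hspa8, Dnaja1, Dnajb1 and Hspd1 lie within 2-fold in both orientations.

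The 2 samples departed from the others in partly different genes, while Hsph1 and Cirbp lay outside the range of the other 6 samples in both. On the means of both orientations Edited cells were below all 6 samples of the replicated groups in 6 of 8 chaperone genes, all except Hsp90aa1 and Dnaja1. This count, also taken by orientation after seeing the data, was 4 on the Cy5 arrays and 5 on the Cy3 arrays, where Hspd1 has no value in Auto.Pos sample 2, and Hsph1, Hspa8 and Hspa1a were in both. Non-edited cells were above all 6 in 3 genes, Hsph1, Hsp90aa1 and Dnaja1, and in these and Hspd1 in each orientation alone. Over the 15 kept chaperone probes these counts were 7 for Edited and 9 for Non-edited cells. Auto.Neg sample 1, which has the same Thy-1 knockout and was scanned on the same day as both, gives a further mark. Against it Hsph1 differed by -0.41 in Edited cells and by 1.79 in Non-edited cells. Cirbp differed from Auto.Neg sample 1 by 1.26 in Edited cells and by -1.63 in Non-edited cells. Edited and Non-edited cells lay on different slides, so slide and group cannot be told apart in this contrast.

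When each gene was centred on its mean over the 8 samples, the median of the 8 chaperone genes was -0.40 in Edited and 0.41 in Non-edited cells. It was 0.10 and -0.07 in Auto.Pos, -0.16 and 0.08 in Auto.Neg, and -0.22 and 0.05 in WT. Its range of 0.81 over the 8 samples compared with 0.32 over the 6 samples of the replicated groups. The range of Cirbp was 2.89 over the 8 samples and 1.39 over those 6. The mean of the 8 chaperone genes and Cirbp correlated at r = -0.818 over the 8 samples, a description with no test, in which both end points are Edited and Non-edited cells and all ratios share the reference RNA. Single chaperones correlated with Cirbp between -0.0699 for Hspe1 and -0.815 for Hsph1. With median centring and no loess curve the range of the chaperone median was 0.53.

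**Figure D3:**
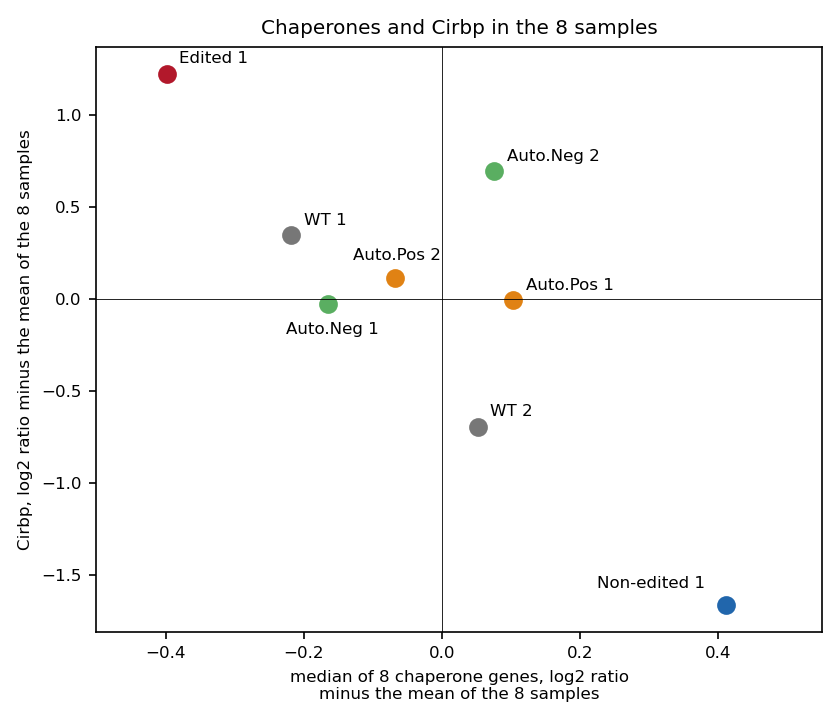
Median of the 8 chaperone genes (horizontal axis) and Cirbp (vertical axis), both as log2 ratio minus the mean of the 8 samples, with 1 point a sample coloured by group. Edited cells are at -0.40 and 1.23, Non-edited cells at 0.41 and -1.66, and the other 6 samples lie between them on both axes.

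The replicated groups ask whether autoreactive B cells that meet their antigen differ in these genes from those that do not and from wild-type cells. No member probe passed in any of the 3 comparisons, by limma with Benjamini-Hochberg adjustment over all 29640 kept probes, at an adjusted p under 0.05. For Auto.Pos minus Auto.Neg 3 probes passed in all (0.0101%), with 275 at an unadjusted p under 0.05. For Auto.Pos minus WT none passed (0%), with 1587 at an unadjusted p under 0.05, and for Auto.Neg minus WT none passed (0%), with 1289. Among member probes the numbers at an unadjusted p under 0.05 were 0, 1 and 1 in the same order. The fits had 3 residual degrees of freedom among samples. The samples of each replicated group were processed under different protocols of the Feature Extraction software. Protocol 1 went with versions 9.1.1.1 and 9.1.3.1 and scan days 1 and 2, and protocol 2 with version 9.5.1.1 and scan days 3 and 4. The spread within a group therefore also holds any difference between protocols, versions and these days, which cannot be told apart. With scan day as a random block, chosen after seeing the data, 6192 of all 29640 kept probes passed in Auto.Pos minus WT. Among the 16 kept member probes 4 passed. Their differences were -0.88 for Hspa8 (limma adjusted p = 0.0104), 1.09 for Hspd1 (0.0161), 0.61 for Hsp90aa1 (0.0189) and -0.94 for Dnajb1 (0.0361). Within scan day 3, which holds 1 Auto.Pos and 1 WT sample, they were -0.92, 1.19, 0.56 and -1.07 in the same order, near the block estimates. On the dimmer Hspa8 probe the difference within that day was 0.14, in the other direction, and on the dimmer Dnajb1 probe it was -0.34. The Hspd1 value of that Auto.Pos sample comes from its Cy5 array alone and is not comparable with the others. On the Cy5 arrays alone, without the block, the Hspd1 difference was 0.02. As the block estimates lie near those of 1 sample against 1, none of the 4 small adjusted p-values is read as a difference between the groups.

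On the brightest probes the largest member difference was that of Hsp90aa1, which averaged -1.59 ± 0.28 in Auto.Pos and -2.44 ± 0.13 in WT (SD, n = 2 each). The difference was 0.86 ± 0.24 (SE), with a limma adjusted p of 0.707, and it was 0.56 within scan day 3, which holds a sample of each group. On the Cy5 arrays alone it was 0.28, and on the Cy3 arrays alone 1.43. In Auto.Neg it averaged -1.81 ± 0.15, which was 0.63 ± 0.24 (SE) above WT at a limma adjusted p of 1, and 0.02 on the Cy5 arrays alone against 1.25 on the Cy3 arrays. The samples of both transgenic groups lay above both WT samples on the means of both orientations, and not on the Cy5 arrays alone.

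Hspd1 averaged -2.31 ± 0.59 in Auto.Pos and -3.06 ± 0.04 in WT (SD, n = 2 each), a difference of 0.75 ± 0.33 (SE) with a limma adjusted p of 0.989. It rests in part on the sample with 1 usable array. On the Cy5 arrays alone, where all samples have a value, the difference was 0.02. On the Cy3 arrays alone, where that sample has none, it was 0.535. Against Auto.Neg, at -2.89 ± 0.17, the difference was 0.58 in all, 0.17 on the Cy5 arrays and 0.06 on the Cy3 arrays. Dnaja1 averaged 0.21 ± 0.03 in Auto.Pos, -0.17 ± 0.18 in Auto.Neg and -0.47 ± 0.66 in WT. Its Auto.Pos samples lay above those of both other groups on all 3 probes on the means of both orientations, and not on the Cy5 arrays alone. There WT sample 2 (-0.12) lay above Auto.Pos sample 1 (-0.16) on the brightest Dnaja1 probe. On the dimmest Dnaja1 probe WT sample 2 (-0.96) and Auto.Neg sample 2 (-1.06) lay above Auto.Pos sample 1 (-1.16). The limma adjusted p on its brightest probe was 1 in both comparisons. Its dimmest probe had the largest Auto.Pos minus WT difference of all kept member probes, 1.06 ± 0.46 (SE), at a limma adjusted p of 0.983. The arrays of a sample differed by 0.393 to 1.845 on that probe. Hspa8 on the brighter probe averaged -1.21 ± 0.34 in Auto.Pos and -0.60 ± 0.10 in WT, a difference of -0.61 ± 0.30 (SE) with a limma adjusted p of 1.

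Cirbp averaged 1.18 ± 0.08 in Auto.Pos, 1.46 ± 0.51 in Auto.Neg and 0.96 ± 0.74 in WT (SD, n = 2 each), and its groups overlapped in every comparison. The differences were -0.28 ± 0.44 (SE) for Auto.Pos minus Auto.Neg, 0.23 ± 0.44 for Auto.Pos minus WT and 0.50 ± 0.44 for Auto.Neg minus WT, each with a limma adjusted p of 1. Within slide 2, which holds Auto.Pos sample 1 and Auto.Neg sample 2, the Cirbp difference was -0.70. Within scan day 3, Cirbp in Auto.Pos sample 2 minus WT sample 2 was 0.81. Hsph1, which differed by 2.20 log2 units in size between Edited and Non-edited cells, averaged -1.41 ± 0.30 in Auto.Pos, -1.30 ± 0.18 in Auto.Neg and -1.37 ± 0.002 in WT. Its differences between these groups were at most 0.10 log2 units in size, with an SE of 0.24. The chaperone medians of the 3 comparisons were 0.07 each, beside medians of all kept probes of 0.01, 0.05 and 0.04. Sample values did not overlap between groups for 2, 4 and 2 of the 9 members, where 18.7%, 28.8% and 24.6% of all kept probes did not. The 3 comparisons share samples.

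**Figure D4:**
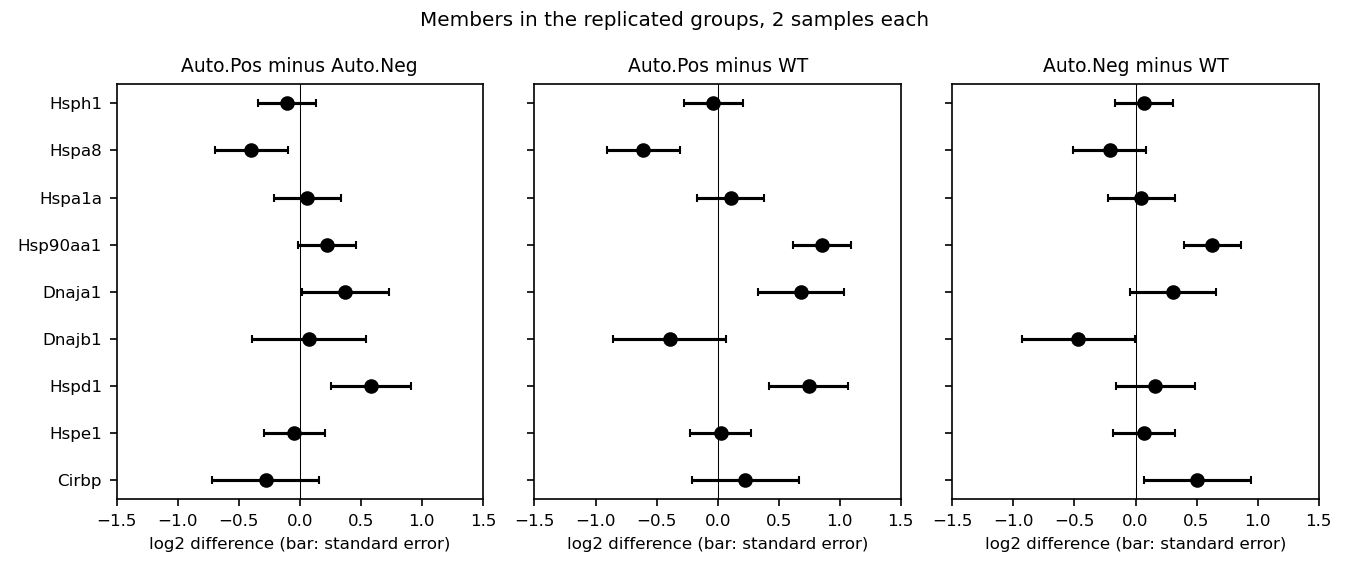
Fitted log2 differences (horizontal axes) of the brightest probes of the 9 members (vertical axis) between the replicated groups, with 2 samples each. Points are differences and bars standard errors from limma. All adjusted p-values are at or above 0.707, and Hsp90aa1 in Auto.Pos minus WT, at 0.86, is the largest difference plotted.

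Other chaperone genes, from lists written with earlier results known, were read on the brightest probe of each gene. In the tested comparisons none of their genes passed over all probes. Between Edited and Non-edited cells, 19 of 25 J proteins and co-chaperones were lower in Edited cells, with a median of -0.18 against -0.03 for all genes. Stip1, which joins HSP70 to HSP90, was -0.29 in Edited and 1.12 in Non-edited cells (a difference of -1.40). Fkbp4, an HSP90 co-chaperone of steroid receptors, was -1.51 in Edited and -0.38 in Non-edited cells (-1.14). Both were at least 2-fold lower in both dye orientations, and both had Non-edited cells as their highest sample. Dnaja4, a J protein, went the other way, at 3.50 in Edited and 2.34 in Non-edited cells (1.16).

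All 8 subunits of TRiC, the cytosolic chaperonin that folds actin and tubulin, were lower in Edited cells, by a median of -0.34, with Cct3 at -0.75 and none at 2-fold. Of 15 other HSP70, HSP110, HSP90 and small heat shock proteins 9 were lower and 6 higher, with a median of -0.03, near that of all genes. Among them Hspa4l, a further HSP110 family member, was at -0.76 and Hsp90ab1, the constitutive HSP90, at -0.73. Endoplasmic reticulum chaperones and their regulators were lower for 12 of 17 genes (median -0.20). Among these Xbp1, a transcription factor of the unfolded protein response, was at least 2-fold lower in both orientations, at -0.45 in Edited and 0.58 in Non-edited cells (-1.03). It also ranged between -1.61 and 0.85 in the replicated groups. Mitochondrial chaperones and proteases other than the members were lower for 5 of 9 (median -0.08). Immediate early genes, which cell stimulation or handling can induce, were higher for 9 and lower for 12 of 21 genes (median -0.09). Of these the transcription factors Egr3 (5.03 in Edited and 3.35 in Non-edited cells, a difference of 1.68) and Egr2 (4.31 and 2.77 in the same samples, 1.54) were at least 2-fold higher in both orientations, with Non-edited cells the lowest of the 8 samples. The part of cell stimulation or handling in the chaperone values was not tested. The regulator Hsf1 itself differed by -0.12, and 5 other heat shock factor targets were split, with 3 higher and 2 lower. The Edited minus Non-edited values thus varied by class, from all subunits lower in TRiC to both directions among the other heat shock proteins and heat shock factor targets.

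**Figure D5:**
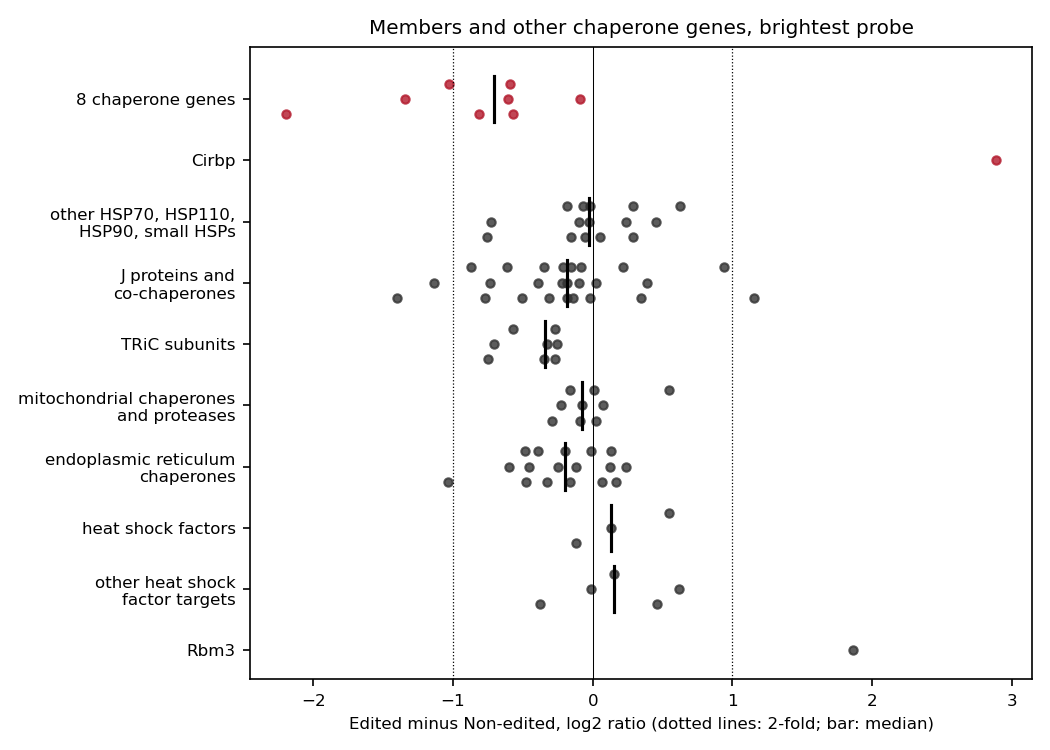
Edited minus Non-edited log2 ratio (horizontal axis) of each gene's brightest probe, by gene list (vertical axis), with 1 sample in each group. Points are genes, bars list medians and red points the members. Cirbp at 2.89 and Rbm3 at 1.86 stand to the right, and the 8 chaperone genes have a median of -0.71.

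Rbm3, the other well-known cold-inducible RNA-binding protein and not a member, had log2 ratios of -0.03 in Edited and -1.89 in Non-edited cells on its brighter probe. It was -0.09 and -1.19 in Auto.Pos, -0.85 and 0.21 in Auto.Neg, and -1.35 and -0.89 in WT. Non-edited cells were the lowest of the 8 samples, as for Cirbp, while Auto.Neg sample 2 was the highest. The difference was 1.86, and 1.93 and 1.79 in the dye orientations. A second probe, with a mean log2 intensity of 7.23 against 16.1, gave -0.38 and so the other direction.

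Among 6884 genes that ranged over at least 1 log2 unit, those most like the chaperone mean over the 8 samples were 0610040J01Rik (r = 0.902), Gpt2 (0.881), Adarb1 (0.868), Tead1 (0.858) and Prr15 (0.832). Those most like Cirbp were Fam71e1 (0.902), Herc3 (0.902), Hnrnpdl (0.875), Slc14a1 (0.856) and BC051142 (0.854). Hnrnpdl, an RNA-binding protein, was -0.32 in Edited and -2.00 in Non-edited cells. These are the highest values out of many over 8 samples that share a reference RNA, and they are given with no test.

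The follicular B cell label was checked on its markers. All 9 B cell markers were well above background on all 16 arrays, with mean log2 ratios of 5.58 in Edited, 5.39 in Non-edited and 4.69 to 5.14 in the other samples. Thy1, the deleted gene of the knockouts, was at -4.03 in Edited and -3.97 in Non-edited cells, -4.22 to -3.73 in Auto.Pos and Auto.Neg and -4.31 and -4.54 in WT, so that it does not separate knockout from wild-type B cells against this reference. The Cy3 arrays gave no Edited minus Non-edited difference for Thy1, because a value was missing. On the Cy5 arrays that difference was -0.70, so the near-equal means do not compare like arrays. Several markers of other cells moved with the Edited and Non-edited contrast. The 5 kept neutrophil markers were all lower in Edited cells, with mean log2 ratios of 1.87 in Edited, 3.11 in Non-edited and 2.51 to 4.05 in the others. Camp, a neutrophil granule gene, was 0.25 in Edited and 2.89 in Non-edited cells. The macrophage marker Adgre1 was higher in Edited cells (a difference of 1.49), although the 7 macrophage markers averaged 2.16 in Edited and 1.82 in Non-edited cells, against 2.17 to 3.37 elsewhere. The 8 T cell markers averaged -2.67 in Edited and -2.70 in Non-edited cells, although Lck was higher in Edited cells by 1.86. The 4 plasma cell markers averaged -2.24 in Edited and -2.38 in Non-edited cells, and the 6 platelet and erythroid markers 1.20 and 1.08 in the same samples, against 1.93 to 3.98 elsewhere. Markers well above background on all 16 arrays were 8 of 8 for T cells, 7 of 7 for macrophages, 2 of 5 for neutrophils, 4 of 4 for plasma cells and 4 of 6 for platelets and erythroid cells. The part of such cells in the chaperone and Cirbp values was not tested. In bulk RNA, fewer cells of a type and less RNA per cell cannot be told apart. The share of probes well above background was 61.9% to 81.9% over the arrays, and the arrays of a pair correlated at 0.905 to 0.971.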

How the data were processed

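Mouse follicular B cell RNA of 8 samples was measured on 16 two-colour arrays. Per the labels' protocols, RNA amplification started from 100 ng, and each product was labelled with either dye. The deposited scanner files hold spot and background intensity, written by Agilent Feature Extraction (9.1.1.1, 9.1.3.1 and 9.5.1.1), per the file headers. The same files carry log10 red-to-green ratios, processed by that software, per the file headers. The deposited series table holds log2 ratios, for which the submitters' processing notes name limma. Of its 16 columns, 10 matched another array than their own best (absolute r of 0.944 to 0.996), so it served as an alternative only. By the sign of these matches 2 columns, both labelled Auto.Neg, run as reference over sample and the others as sample over reference, and no column was turned. The column medians lay between -0.0171 and 0.016, and 0 columns belong to no sample.

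In R 4.3.3 with limma 3.58.1, mean intensity was corrected by normexp (offset 50) and normalized by loess within arrays, with control spots at weight 0 and outlier spots left out. Dye-swapped ratios had their sign changed, and each pair was averaged. limma was fitted to all 8 samples with 1 mean a group, and the fit was checked on simulated data. A probe was called at a Benjamini-Hochberg adjusted p under 0.05. Edited and Non-edited cells were compared by the rule of 2-fold in both orientations. Named genes were the members, up to 3 genes a list by size of difference and the 5 most like each pattern. The members and lists were chosen with earlier results of these data known. Alternatives were the Agilent processed log ratio, normalization, filter, probe choice, orientation, left-out samples, blocks and the series table. Background correction was not varied by itself. Coordinates of probes are mm7, as in the files that hold them. Sample numbers did not pair the samples: deviations of same-numbered samples correlated at -0.805 for Auto.Pos with Auto.Neg, 0.258 for Auto.Pos with WT and -0.266 for Auto.Neg with WT.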

Additional observations from a re-analysis of the deposited data

How the results depend on the processing

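For Auto.Pos minus Auto.Neg, the 3 called probes became 1 with the Agilent log ratio, 12 on the Cy5 arrays and 41 with scan day as a random block (chosen after seeing the data, estimated correlation 0.921). They became 0 with median centring, scale normalization, no filter, the Cy3 arrays, the replicate block or the software protocol block. A crossed numbering, chosen after seeing the data, is the software protocol block under another name and also gave 0. For Auto.Pos minus WT, the 0 calls became 1 with the Agilent log ratio, 63 on the Cy5 arrays and 6192 with the scan day block, which called 4 member probes. For Auto.Neg minus WT, the 0 calls became 52 on the Cy5 arrays and 599 with the scan day block. The cause was not tested. The replicate block called 0 member probes in every comparison.

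The series table as labelled gave 10223 called probes and 6 member probes for Auto.Pos minus Auto.Neg and 9021 and 7 for Auto.Neg minus WT, with columns that match other arrays than their own and 2 Auto.Neg columns that run the other way. The range of the chaperone median was 0.53 with median centring, 1.07 on the Cy3 arrays and 1.61 in the series table. Member probes 2-fold apart between Edited and Non-edited cells were 5, and 2 with median centring, 3 with 1 probe a gene, 7 with the Agilent log ratio and 6 in the series table. Cirbp stayed between 2.80 and 2.99 and Hsph1 between -2.40 and -1.88 in the 6 alternatives run. With slide as a random block, limma's estimate of the correlation was tried and gave a value for 0 of 29640 probes, with 7 slides for 8 samples, so no fit was made.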
